A study of Mus musculus with 4 samples.

Results

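The 7 genes described here encode enzymes that remove superoxide and peroxides: the glutathione peroxidases Gpx1, Gpx3 and Gpx4, the superoxide dismutases Sod1 and Sod2, the catalase Cat and the peroxiredoxin Prdx1. They were taken by symbol from the 32285 genes of a single-cell RNA-seq count matrix, and each symbol matched 1 row. Their levels are given in beta, alpha, delta and non-endocrine cells of pancreatic islets. The genes were chosen by their role, with their class and library levels in these cells already seen, and the cell classes were cut from the same counts, so every value is a description and no test was made.

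The study took hand-picked, cultured and dispersed islets of 5-week-old NOD mice, a strain that develops autoimmune diabetes, and was designed around Xbp1, which encodes a transcription factor activated by IRE1α when unfolded proteins build up. There were 2 groups of 2 samples: Xbp1β-/- mice, whose beta cells were made to lose Xbp1, and Xbp1fl/fl mice, which carry the floxed alleles. All mice of both groups received tamoxifen (10 mg/ml, injected into the peritoneum on 5 consecutive days) to switch on Cre recombinase, and the sources used here do not name the promoter that drives Cre. The sources do not say whether a sample is 1 mouse or a pool, and nothing ties the 4 numbered libraries of the pooled matrix to a sample or genotype, so each library is given on its own and no genotypes are compared.

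Superoxide made by mitochondria and oxidases is turned into hydrogen peroxide by the dismutases, Sod1 in the cytosol and Sod2 in the mitochondrial matrix. Hydrogen peroxide is then removed by catalase in peroxisomes, by peroxiredoxins with thioredoxin as reductant and by glutathione peroxidases with glutathione. Rodent beta cells are known for low levels of catalase and glutathione peroxidase, and are for that reason often described as sensitive to peroxide.

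The 3 glutathione peroxidases studied here are selenoproteins: a UGA codon in the coding sequence, elsewhere a stop, is read as selenocysteine at the active site. The codon is shown because it is the feature that these members share and that the other 4 lack. Each line gives the coding strand 5′ to 3′ with 6 codons on either side, the selenocysteine codon in capitals, from GENCODE M21 on GRCm38. Their codons lie on the plus strand at chr9:108339451-108339453 (codon 47 of 201 in Gpx1), chr11:54907256-54907258 (codon 73 of 226 in Gpx3) and chr10:80054737-80054739 (codon 129 of 253 in Gpx4).
Gpx1: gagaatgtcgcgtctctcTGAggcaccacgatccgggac
Gpx3: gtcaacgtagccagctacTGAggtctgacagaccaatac
Gpx4: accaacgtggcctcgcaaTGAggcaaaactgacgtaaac

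Gpx3 and Sod2 were the members whose beta-cell levels varied at least 2-fold over the libraries in a beta class, and their promoters are shown for that reason. Each is the 250 bases before the RefSeq start on the plus strand, from RefSeq on GRCm38.p6, with matches to the GC box GGGCGG on either strand in capitals. The Gpx3 stretch (chr11:54902604-54902853) held 1 match, at -49 from the start. The Sod2 stretch (chr17:13007589-13007838) held 4 matches on the strand shown, and the Sod1 promoter also held 4. Of 32851 promoters of the same length, 32.7% held a GC box. A match to the NF-kB motif was found at -83 in Sod2 and -170 in Prdx1 and none in Gpx3, against 3.90% of all promoters. The antioxidant response element core TGACNNNGC, found in 10.2% of promoters, was in neither, but was at -56 in Sod1 and -133 in Prdx1. No binding was measured, so these matches are a description of the letters only.
Gpx3: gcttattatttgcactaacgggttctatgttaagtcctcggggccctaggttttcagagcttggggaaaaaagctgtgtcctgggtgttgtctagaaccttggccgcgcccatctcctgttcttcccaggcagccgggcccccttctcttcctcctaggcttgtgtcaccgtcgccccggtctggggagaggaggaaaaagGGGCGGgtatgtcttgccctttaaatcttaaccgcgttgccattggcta
Sod2: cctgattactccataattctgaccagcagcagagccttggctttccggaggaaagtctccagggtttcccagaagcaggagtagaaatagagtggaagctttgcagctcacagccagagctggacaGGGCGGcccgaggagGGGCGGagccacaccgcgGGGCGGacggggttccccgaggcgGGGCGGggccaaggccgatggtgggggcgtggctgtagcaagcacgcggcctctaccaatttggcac

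In GENCODE M21 the 7 genes lie on GRCm38 as follows: Gpx1 at chr9:108338903-108340343, Gpx3 at chr11:54902453-54910377, Gpx4 at chr10:80047166-80056439, Sod1 at chr16:90220754-90226329, Sod2 at chr17:13006846-13040063, Cat at chr2:103453849-103485160 on the minus strand and Prdx1 at chr4:116685544-116700822. GENCODE starts Gpx3 and Sod2 upstream of the RefSeq starts used for the promoters, so the stretches shown lie inside the GENCODE genes. Sod1 overlaps Scaf4 on the other strand in the annotation. The sources used here do not say whether counting used strand, so reads of these 2 genes may not be separable. The annotation holds 1 Gpx4 pseudogene, which is no row of the matrix, and no overlap was annotated for the other 6 genes.

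The libraries held 82963911, 178396311, 85266513 and 110800927 UMIs, counts of unique molecules, for libraries 1 to 4. After filtering, 3635, 5268, 3455 and 3788 cells were left, at a median of 13287, 33052, 15759 and 27499 UMIs. Of the barcode sequences, 45 occurred in more than 1 library. Levels are UMIs per 1000000 UMIs summed over a class (CPM), and 7 hormone genes do not count towards that total. Hormone genes took 47.3, 57.8, 45.0 and 56.7% of all UMIs in Spp1-low beta cells of libraries 1 to 4 but 26.3 to 30.4% in alpha cells. Intervals are exact Poisson at the 95% level and cover counting error only.

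Beta cells had at least 5% of their UMIs from Ins2 and were split at 0.5% from Spp1, which encodes osteopontin. Spp1-high beta cells numbered 355, 131, 377 and 219 in libraries 1 to 4, and Spp1-low beta cells 234, 3211, 356 and 2002. Alpha cells (Gcg, at least 5%) numbered 252, 769, 298 and 727, and delta cells (Sst, at least 3%) 220, 426, 334 and 403. The 2474, 398, 1922 and 210 cells below every hormone threshold are called non-endocrine. They are different mixtures in each library, with 666, 25, 504 and 1 B cell-like cells. The labels of the hormone classes were checked against 6 beta, 5 alpha and 3 delta markers other than hormones. Beta markers summed to 1803 to 2676 CPM in Spp1-high and 1991 to 3824 CPM in Spp1-low beta cells, against 43.2 to 126 CPM in alpha cells. Delta markers summed to 8719 to 12727 CPM in delta cells. Alpha markers summed to 5951 to 8666 CPM in alpha cells. Libraries stood apart here: alpha markers summed to 4320, 258, 4282 and 286 CPM in Spp1-high and 3095, 569, 3273 and 394 CPM in Spp1-low beta cells of libraries 1 to 4.

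Xbp1, the targeted gene, stood at 56.4, 209, 46.3 and 212 CPM in Spp1-high beta cells of libraries 1 to 4, and at 128, 228, 109 and 222 CPM in Spp1-low beta cells. Alpha cells held 200.2, 171, 179 and 165 CPM. In both beta classes libraries 1 and 3 were below libraries 2 and 4. These sources do not state which part of the gene was deleted or which transcript end was read, so the deletion cannot be checked from these levels.

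**Figure D1:**
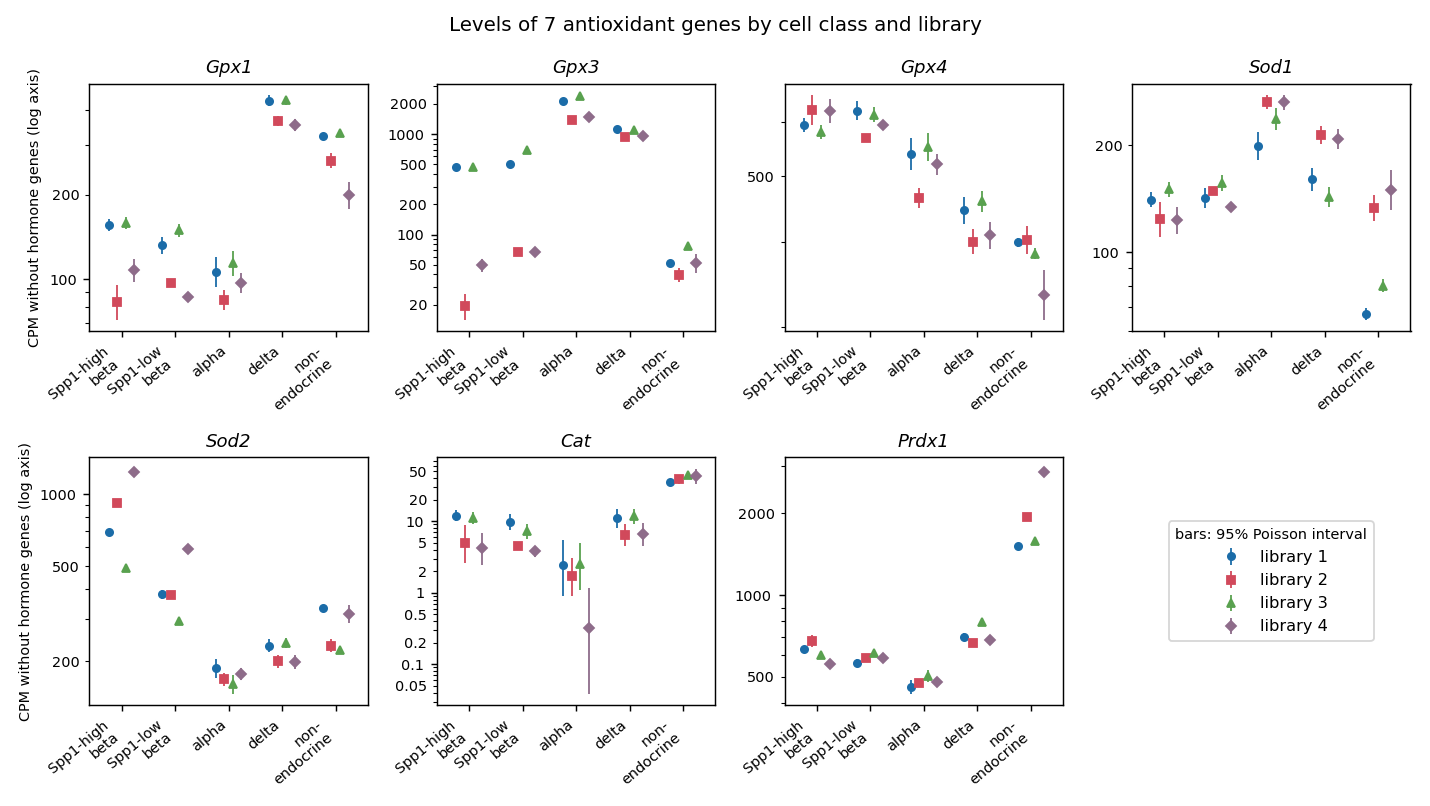
Levels of the 7 genes, in CPM without hormone genes on a log axis, in 5 cell classes, with a point for each library and 95% Poisson intervals. Gpx3 in both beta classes is high in libraries 1 and 3 and low in libraries 2 and 4, while Gpx4 lies in a narrow band in every class.

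Sod2, the manganese dismutase of the mitochondrial matrix, was higher in Spp1-high than in Spp1-low beta cells of every library. It stood at 697, 919, 494 and 1245 CPM in Spp1-high beta cells of libraries 1 to 4. Spp1-low beta cells held 381, 379.5, 294 and 593 CPM. The classes differed in the same direction within each library, but across libraries their levels overlapped. The log2 ratio of Spp1-high to Spp1-low beta cells was 0.85, 1.25, 0.73 and 1.06, with a median of 0.96, a 1.94-fold difference. As 2 of 4 libraries were under 2-fold, Sod2 was not counted as past 2-fold.

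Across narrower bins of Spp1, the Sod2 level was ordered in most libraries. In library 1 it stood at 340, 394, 494, 572, 611 and 839 CPM in beta cells from under 0.05% to 2% of Spp1 or more. In library 3 the 6 bins held 275, 308, 341, 420, 463 and 586 CPM, and in library 4 536, 673, 896, 1014, 1418 and 1860 CPM. Library 2 held 343, 482, 604, 880 and 788 CPM over the 5 bins that had enough cells. Library 4 was thus the highest in every bin, though the bin at 2% or more has no value for library 2. Just below the split, in cells at 0.25 to 0.5% Spp1, Sod2 stood at 512, 618, 333 and 1007 CPM, and just above it, at 0.5 to 1%, at 572, 880, 420 and 1014 CPM.

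The Sod2 level was uneven among cells. In Spp1-high beta cells of library 4 the median cell held 632 CPM and the 90th percentile 3541 CPM, against 297 and 1449 CPM in Spp1-low beta cells. The top 10% of Spp1-high beta cells held 40.7, 47.7, 38.2 and 35.4% of their Sod2 UMIs in libraries 1 to 4. In Spp1-low beta cells the top 10% held 40.7, 45.9, 29.9 and 49.4%. Shares of this size were not particular to beta cells, with 42.9, 34.9, 39.8 and 35.3% in alpha and 37.0, 27.3, 39.3 and 28.2% in delta cells. Cells were ranked by Sod2 UMIs, so cells with more UMIs weigh more in these shares. Of the other cell types, macrophage-like cells held 1442, 399, 565 and 412 CPM of Sod2. The 6 macrophage markers summed to 56.6, 48.5, 40.5 and 51.5 CPM in Spp1-high and to 173, 56.3, 96.7 and 55.1 CPM in Spp1-low beta cells. Of these markers C1qa was lower in Spp1-high than in Spp1-low beta cells of every library. Cd68 was not, at 9.41, 33.0, 6.75 and 38.8 CPM in Spp1-high and 14.8, 28.5, 10.3 and 29.8 CPM in Spp1-low beta cells, so it was higher in Spp1-high cells of libraries 2 and 4. The part of macrophage RNA in the Sod2 levels was not tested. Adgre1 and Csf1r were at 0 in Spp1-high beta cells of libraries 2, 3 and 4. Acinar markers, all 6 detected, summed to 4251 CPM in Spp1-high beta cells of library 1, against 155 CPM in its Spp1-low beta cells, and to at most 13.3 CPM in either beta class of libraries 2, 3 and 4. Acinar-like cells of library 1 held 23.5 CPM of Sod2.

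**Figure D2:**
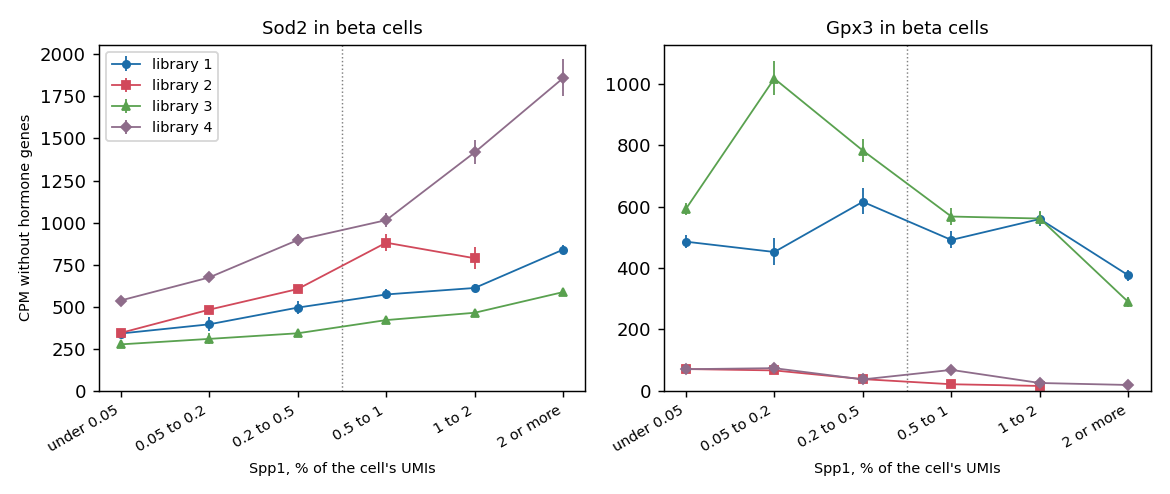
Levels of Sod2 (left) and Gpx3 (right) in beta cells, in CPM without hormone genes, by the share of a cell's UMIs from Spp1, with a line for each library and 95% Poisson intervals; the dotted line is the split at 0.5%. Sod2 is higher in each further bin of libraries 1, 3 and 4, ending at 839, 586 and 1860 CPM, while Gpx3 separates the libraries in every bin.

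Sod2 was lower in alpha and delta cells than in either beta class. Alpha cells held 187, 168, 160.1 and 177 CPM in libraries 1 to 4, and delta cells 232, 200.3, 238 and 199.7 CPM. Neither range overlapped that of the beta classes. Of the 7 members, Sod2 was the one at least 2-fold higher in Spp1-high beta than in alpha cells in every library, with log2 ratios of 1.84, 2.38, 1.57 and 2.75. Over the 12222 genes compared, 2.15% were higher by that rule and 2.14% lower. For Spp1-low beta cells against alpha cells the log2 ratios were 0.99, 1.13, 0.84 and 1.69, under 2-fold in libraries 1 and 3. Against delta cells they were 0.69, 0.89, 0.29 and 1.52, and the lowest was -0.14 with hormone genes in the total.

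Sod1, the copper and zinc dismutase of the cytosol, had its highest endocrine level in alpha cells in each library. It stood at 141, 124, 151 and 123 CPM in Spp1-high and at 142, 149, 156.5 and 134 CPM in Spp1-low beta cells of libraries 1 to 4. The beta classes overlapped, and their log2 ratios lay between -0.25 and -0.02, with a median of -0.08 that was 0.04 with hormone genes in the total. Alpha cells held 199.7, 265, 237 and 265 CPM, above every beta value. The log2 ratio of Spp1-low beta to alpha cells was -0.46, -0.80, -0.57 and -0.93, never past 2-fold. Delta cells held 160.5, 213.5, 143 and 208 CPM, with a log2 ratio of Spp1-low beta to delta cells that was negative in libraries 1, 2 and 4 and 0.12 in library 3, and negative in all 4 with hormone genes in the total. Among non-endocrine cells, endothelial-like cells stood out with 260.1, 281, 279.7 and 283 CPM, while macrophage-like cells held 46.8 to 60.5 CPM.

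Gpx3, the glutathione peroxidase that is secreted into plasma, showed the widest spread of the 7 genes over the libraries in both beta classes. In Spp1-high beta cells it stood at 468.5, 19.2, 469.5 and 49.3 CPM in libraries 1 to 4. Spp1-low beta cells held 509, 67.6, 689 and 67.4 CPM. Libraries 1 and 3 were high and libraries 2 and 4 low, in both beta classes and with no overlap. These levels rest on 5225, 46, 5147 and 197 UMIs in Spp1-high and on 3173, 3962, 6891 and 2248 UMIs in Spp1-low beta cells, so the lowest value has an interval of 14.1 to 25.6 CPM. With a pseudocount of 10 CPM, the highest library was 9.03-fold above the lowest in Spp1-low beta cells, a log2 range of 3.18, and 11 of 15832 genes had a range at least as wide. In Spp1-high beta cells the range was 16.4-fold, and 23 of 14282 genes matched it.

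Other endocrine cells showed a narrower spread in the same order, with libraries 1 and 3 above libraries 2 and 4. Alpha cells held 2147, 1397, 2405 and 1468 CPM of Gpx3 in libraries 1 to 4, a 1.72-fold range, and delta cells 1137, 942, 1110.5 and 953 CPM, a 1.21-fold range. In alpha cells 3.71% of 13259 genes had a range at least as wide, and in delta cells 45.9% of 13490. Gpx3 was the member at least 2-fold lower in Spp1-low beta than in alpha cells in every library, with log2 ratios of -2.06, -4.18, -1.79 and -4.26. By that rule 2.38% of 12828 genes were higher and 1.71% lower. Spp1-high beta cells against alpha cells gave -2.17, -5.59, -2.33 and -4.64. Against delta cells, Spp1-low beta cells had -1.14, -3.62, -0.68 and -3.64, so that library 3 alone was under 2-fold, and none was with hormone genes in the total.

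The share of beta cells with a Gpx3 UMI followed the summed level. It was 79.4, 20.6, 82.8 and 22.4% of Spp1-high and 85.5, 30.1, 89.3 and 27.4% of Spp1-low beta cells in libraries 1 to 4, at a median of 28251, 18937, 27394 and 17973 and of 26913, 17778, 27274 and 16100.5 UMIs per cell outside the hormone genes. With each cell thinned to 5000 such UMIs, the shares were 60.8, 7.42, 62.0 and 10.0% of Spp1-high and 69.6, 16.1, 79.1 and 15.7% of Spp1-low beta cells. The libraries kept their order at equal depth. Thinning left out the cells with fewer UMIs, which were 21, 265, 47 and 129 Spp1-low beta cells and 7 to 30 Spp1-high beta cells. In B cell-like cells, taken as background, the thinned share was 3.52% in library 1 and 3.11% in library 3, at a median of 4190 and 4732.5 UMIs before thinning. Endothelial-like cells gave 7.58, 2.30, 5.46 and 2.76% in libraries 1 to 4, at a median of 9648, 9023.5, 11226.5 and 6918 UMIs. Non-endocrine cells as a whole, a mixture, gave 11.7, 8.67, 13.6 and 6.68%. The Spp1-low beta shares were above each of these in every library, but the 7.42% of Spp1-high beta cells in library 2 was below the 8.67% of non-endocrine cells.

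**Figure D3:**
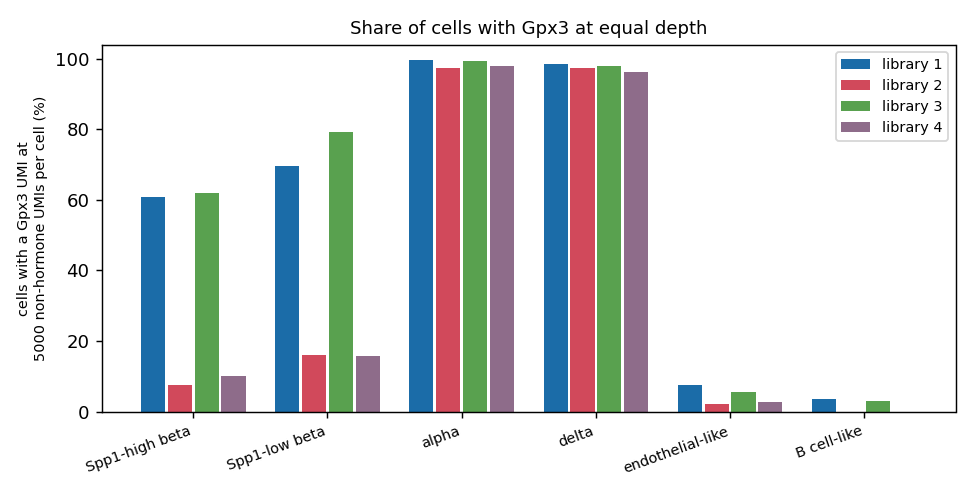
Percentage of cells with at least 1 Gpx3 UMI after each cell was thinned to 5000 UMIs outside the hormone genes, by class and library; B cell-like cells are shown for libraries 1 and 3 because libraries 2 and 4 held under 30. Alpha and delta cells lie above 96% in every library, and Spp1-low beta cells at 69.6, 16.1, 79.1 and 15.7% in libraries 1 to 4.

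Within Spp1-low beta cells the Gpx3 UMIs of libraries 2 and 4 came from few cells. The top 10% of cells held 38.3, 78.0, 35.1 and 79.4% of them in libraries 1 to 4, against 28.3 to 29.2% in alpha cells. The median Spp1-low beta cell held 387 CPM in library 1, 0 in library 2, 564 in library 3 and 0 in library 4. Beta cells with under 0.1% of their UMIs from each of Gcg, Sst and Ppy, a cut chosen after seeing the data, held 401, 19.96, 433 and 15.7 CPM in Spp1-high and 479, 35.3, 635 and 41.9 CPM in Spp1-low cells. In the purer Spp1-low cells every library was below the level of its whole class, which was 509, 67.6, 689 and 67.4 CPM. Per 1000 Gcg UMIs, Spp1-low beta cells held 549, 22.6, 353 and 37.7 Gpx3 UMIs, against 3.72 to 6.39 in alpha cells of the same libraries. Per 1000 Sst UMIs they held 144, 32.7, 143 and 40.6, against 4.41 to 7.42 in delta cells. The part of alpha and delta RNA in these Gpx3 levels was not tested.

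The Gpx3 level also differed with the Ins2 share of a cell. In Spp1-low beta cells with 5 to 15% of UMIs from Ins2 it stood at 753, 215, 843 and 281 CPM in libraries 1 to 4, and in those with 35 to 50% at 343, 54.7, 537 and 45.7 CPM. Libraries 1 and 3 remained above libraries 2 and 4 in each of the 4 Ins2 bins compared. The alpha marker Ttr, which encodes transthyretin, moved with Gpx3 over the libraries, at 3025, 541, 3196 and 367 CPM in Spp1-low beta cells, against 4888 to 7443 CPM in alpha cells. All 5 alpha markers outside the hormones were detected in Spp1-low beta cells of every library, while Irx1 was at 0 in Spp1-high beta cells of library 2. Delta markers summed to 423, 214, 580 and 206 CPM in Spp1-low beta cells, also higher in libraries 1 and 3. The part of the marker genes and of the Ins2 share in the Gpx3 difference was not tested.

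Gpx1, the glutathione peroxidase of cytosol and mitochondria, was lower in beta and alpha cells than in delta cells. It stood at 156, 82.7, 159 and 108 CPM in Spp1-high and 132, 97.1, 149 and 86.5 CPM in Spp1-low beta cells of libraries 1 to 4. The beta classes overlapped, and libraries 1 and 3 were above libraries 2 and 4 in both. Delta cells held 433, 366, 434 and 355 CPM, with no overlap with the beta classes. The log2 ratio of Spp1-low beta to delta cells was -1.64, -1.81, -1.48 and -1.92, and Gpx1 was the member past 2-fold lower in every library. By that rule 1.56% of 12974 genes were higher and 1.63% lower. Alpha cells held 106, 84.7, 114 and 96.9 CPM, within the range of the beta classes. The median log2 ratio of Spp1-low beta to alpha cells was 0.23, and it was -0.29 with hormone genes in the total.

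Gpx4, which reduces lipid hydroperoxides in membranes and restrains ferroptosis, varied little over the libraries. It stood at 594, 626, 581 and 624 CPM in Spp1-high and 624, 569, 616 and 594.5 CPM in Spp1-low beta cells of libraries 1 to 4. The highest library was 1.08-fold and 1.10-fold above the lowest. Alpha cells held 539.9, 465, 552.5 and 520.4 CPM and delta cells 445, 401, 459.6 and 409 CPM, below the beta classes of the same library. This order depends on the total: the median log2 ratio of Spp1-low beta cells to alpha cells was 0.20 and to delta cells 0.49 without hormone genes, and -0.34 and -0.12 with them.

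Cat, the catalase of peroxisomes, was counted rarely in endocrine cells. It stood at 11.9, 5.01, 11.1 and 4.25 CPM in Spp1-high and 9.79, 4.50, 7.30 and 3.77 CPM in Spp1-low beta cells of libraries 1 to 4, from 12 to 264 UMIs a value. Alpha cells were lower still, at 2.47, 1.73, 2.55 and 0.32 CPM, from 6, 12, 8 and 2 UMIs. The alpha intervals of libraries 1, 2 and 3 reached 5.38, 3.02 and 5.03 CPM, and that of library 4 reached 1.15 CPM. Without hormone genes in the total, the intervals of Spp1-low beta cells lay above these in every library. Hormone genes took a larger share of UMIs in beta than in alpha cells, so these gaps are narrower with them in the total. With the intervals scaled to that total, those of Spp1-low beta and alpha cells overlapped in libraries 1, 2 and 3 and stayed apart in library 4. The interval of Spp1-high beta cells overlapped that of alpha cells in library 2 alone, starting at 2.59 CPM. Delta cells held 11.1, 6.51, 11.7 and 6.66 CPM, overlapping the beta classes. Non-endocrine cells held 35.7, 38.4, 44.5 and 43.0 CPM, above every endocrine class. The log2 ratio of Spp1-low beta to non-endocrine cells was -1.21, -1.74, -1.66 and -1.95. The pseudocount of 10 CPM shrinks such ratios of a gene at this level.

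Prdx1, a peroxiredoxin of the cytosol that uses thioredoxin, was even among beta cells. It stood at 632, 678, 603 and 557.5 CPM in Spp1-high and 562, 586, 613 and 585 CPM in Spp1-low beta cells of libraries 1 to 4. The classes overlapped, with log2 ratios from -0.07 to 0.21. Alpha cells held 459.6, 474, 505 and 477 CPM, below the beta classes, but the median log2 ratio of Spp1-low beta to alpha cells of 0.29 was -0.29 with hormone genes in the total. Delta cells held 700.4, 663.5, 796 and 681 CPM, above the Spp1-low beta cells of the same library. Non-endocrine cells held 1517, 1937, 1581 and 2842 CPM, so that the log2 ratio of Spp1-low beta to non-endocrine cells was -1.42, -1.71, -1.35 and -2.26.

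**Figure D4:**
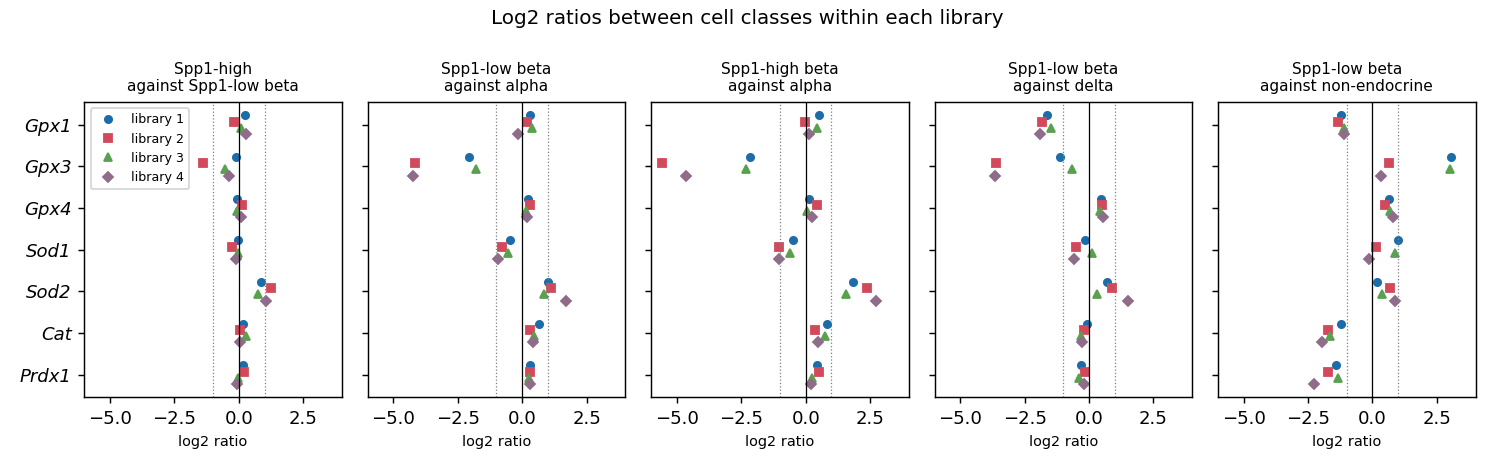
Log2 ratios between cell classes of CPM plus 10, with the class named above each panel over the class named after "against", a point for each library and dotted lines at 2-fold. Gpx3 lies left of the 2-fold line against alpha cells in every library, and Sod2 of Spp1-high beta cells lies right of it.

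Against non-endocrine cells, 3 of the 7 members were at least 2-fold lower in Spp1-low beta cells in every library and 0 higher. These were Gpx1, Cat and Prdx1, but with CPM averaged over cells Cat was the 1 member left. Gpx1 was also not past 2-fold in every library with doubled hormone thresholds or with cells past several thresholds counted in each class. By that rule 7.22% of 14233 genes were higher and 5.69% lower. Gpx1 had a median log2 ratio of -1.17, Cat of -1.70 and Prdx1 of -1.56. Gpx4, Sod1 and Sod2 had medians of 0.65, 0.52 and 0.53, which were -0.30, -0.42 and -0.45 with hormone genes in the total. Gpx3 was at 3.06, 0.64, 2.99 and 0.31 in libraries 1 to 4, and the lowest was -0.64 with hormone genes in the total.

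Between the beta classes, 0 of 7 members were at least 2-fold higher and 0 lower in every library, and over 13206 genes 0.0303% were higher and 0.0227% lower. With each gene taken as its mean over libraries, the 7 members had a median log2 ratio of 0.07, and all genes of -0.04. Over the libraries, 2 of 7 members, Gpx3 and Sod2, had a range of at least 2-fold in Spp1-high beta cells, where 6.11% of genes did. In Spp1-low beta cells it was Gpx3 alone, where 3.27% did, with Sod2 just under at 1.98-fold. The counts were 0 in alpha cells, where 2.34% of genes had such a range, and 0 in delta cells, where 2.68% did. In non-endocrine cells it was Sod1 alone, at 2.08-fold, where 9.83% did. For scale, counting hormone genes in the total moved the median gene of Spp1-low beta against alpha cells to log2 ratios of -0.22, -0.34, -0.14 and -0.35, against 0.03, -0.03, 0.03 and -0.04 without them. Genes past 2-fold in every library then numbered 120 higher and 340 lower, against 305 and 219 without hormone genes. For Spp1-high beta against alpha cells they were 128 and 290 with them and 263 and 261 without. Against delta cells the counts were 82 and 333 with hormone genes and 202 and 211 without, and against non-endocrine cells 296 and 1585 with them and 1028 and 810 without. Between the beta classes they were 4 and 1 with them and 4 and 3 without.

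Non-endocrine cells differed by type, and these were named from fixed markers. Macrophage-like cells held 5250.3, 3471, 5056 and 5459 CPM of Prdx1 in libraries 1 to 4. Endothelial-like cells held 1208, 1143, 1247 and 1105 CPM. B cell-like cells held 489.9 CPM in library 1 and 529 CPM in library 3, below the beta classes. This order depends on the total: with hormone genes in it, B cell-like cells were above the beta classes of both libraries. Without hormone genes in the total, the types thus span from under the beta level of Prdx1 to above it. The non-endocrine level sums over a different mixture of types in each library.

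Gpx1 and Cat were also high in macrophage-like cells. Gpx1 stood there at 816, 599.6, 876 and 533 CPM, while ductal-like cells of libraries 1 and 3 held 415 and 342 CPM. Cat stood at 63.1 to 96.2 CPM in macrophage-like cells of the 4 libraries and at 81.9 and 78.8 CPM in dendritic-like cells of libraries 1 and 3. Acinar-like cells, 53 of them in library 1, held 65.7 CPM of Gpx1, 11.7 CPM of Cat and 204 CPM of Prdx1, all below the non-endocrine level of that library. Gpx3 stood at 164 and 136 CPM in fibroblast-like cells of libraries 1 and 3, and B cell-like cells of these libraries held 13.1 and 9.91 CPM. The 286, 57, 273 and 48 non-endocrine cells that no marker list named held 111, 205, 299 and 279 CPM of Gpx3 in libraries 1 to 4.

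**Figure D5:**
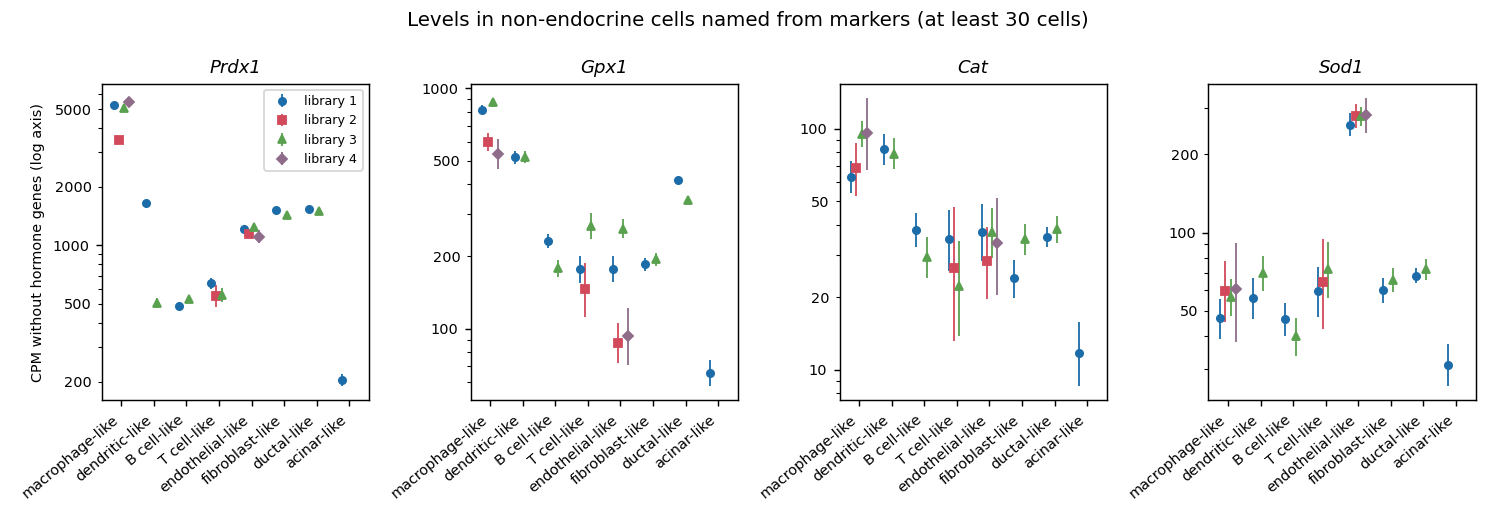
Levels of Prdx1, Gpx1, Cat and Sod1 in non-endocrine cells named from markers, in CPM without hormone genes on a log axis, for types with at least 30 cells in a library, with 95% Poisson intervals. Macrophage-like cells hold the highest Prdx1 levels, 3471 to 5459 CPM, and endothelial-like cells the highest Sod1 levels, 260.1 to 283 CPM.

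A list of 53 other antioxidant genes was described by the same rule. Of these, 50 passed the filter on low counts in each comparison among endocrine cells and 52 against non-endocrine cells. Between the beta classes 0 were past 2-fold in either direction. Against alpha cells 1 of 50 was higher and 0 lower, for both beta classes, where 2.38% of all genes were higher and 1.71% lower for Spp1-low and 2.15% and 2.14% for Spp1-high beta cells. This was Gpx2, a glutathione peroxidase known mainly from the gut, at 202, 150.0, 209 and 128 CPM in Spp1-low beta cells, against 64.7, 52.1, 60.0 and 43.7 CPM in alpha cells. With hormone genes in the total, Gpx2 of Spp1-low beta cells was no longer past 2-fold in every library. With each gene again taken as its mean over libraries, the list's median log2 ratio of Spp1-low beta to alpha cells was 0.28, and that of all genes -0.01. Without hormone genes in the total, the medians by group were 0.73 for the 2 other glutathione peroxidases that passed the filter, 0.65 for the 8 genes of glutathione supply, 0.53 for the 8 other selenoproteins, 0.41 for the 7 of the thioredoxin system, 0.35 for the 5 other peroxiredoxins, 0.20 for the 7 of the NRF2 axis, 0.03 for the 6 of selenoprotein synthesis and -0.04 for the 6 of NADPH supply. Beside Gpx2, none of the genes in these groups was past 2-fold in every library.

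Against delta cells 1 of the 50 genes was higher in Spp1-low beta cells and 0 lower, where 1.56% of all genes were higher and 1.63% lower. Glrx, a glutaredoxin that reduces mixed disulfides with glutathione, stood at 111, 132.5, 98.6 and 156 CPM in Spp1-low beta cells, against 28.9, 7.07, 18.5 and 9.65 CPM in delta cells. Against non-endocrine cells 2 of 52 were higher and 4 lower, where 7.22% of all genes were higher and 5.69% lower. Selenom, a selenoprotein of the endoplasmic reticulum, had a median log2 ratio of 2.00, and Sepsecs, which makes selenocysteine on its tRNA, of 1.42. Lower were Gpx8 at -2.33, the cystine transporter Slc7a11 at -1.95, the methionine sulfoxide reductase Msrb1 at -1.74 and the thioredoxin Txn1, the reductant of Prdx1, at -1.66. The list's median log2 ratio there was -0.05, and that of all genes 0.17.

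Likeness of pattern was measured by Pearson correlation over 23 points of class and library, among 3511 genes, as a description: points share libraries and classes. Gpx3 was most like Arid4b (0.96), Tnrc6a (0.95) and Ocrl (0.95), and Sod2 most like Tifa and Nup93 (0.90 each). Cat was most like Cfl1 (0.96) and Aldh2 (0.95), Prdx1 most like Blvrb (0.95), Sod1 most like Arglu1 (0.94), Gpx4 most like Ntrk2 (0.93) and Gpx1 most like Sri (0.92). Among the members themselves, the closest pair was Cat and Prdx1 at 0.84, then Gpx3 and Sod1 at 0.73, and the most opposed were Gpx4 and Prdx1 at -0.74.

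Cells next to a threshold were in some cases a large part of their class. The Spp1-high beta cells of libraries 1 to 4 numbered 355, 131, 377 and 219. Of these, 76, 78, 105 and 124 held 0.5 to 1% Spp1. Beta cells just past the Ins2 threshold, with 5 to 10% of their UMIs from it, numbered 108, 68, 92 and 17 in libraries 1 to 4 and held 514, 229, 651 and 73.8 CPM of Gpx3. Cells just short of it, with 2.5 to 5% and past no other hormone threshold, numbered 23, 105, 40 and 24 and held 499, 101, 785 and 225 CPM. On both sides libraries 1 and 3 were above libraries 2 and 4. Alpha cells with 5 to 10% of UMIs from Gcg held 1113, 709.6, 1478 and 952 CPM from 16, 38, 15 and 22 cells, and the 13, 10, 14 and 5 cells with 2.5 to 5% held 951, 749, 1110.4 and 866 CPM. The 76, 256, 131 and 168 cells past several hormone thresholds, which may be doublets, were set apart and held 1038, 842, 1193 and 756 CPM of Gpx3.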

How the data were processed

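Single-cell RNA-seq was measured in dispersed islet cells of 4 samples. The deposited values are UMI counts per gene and barcode in 1 pooled matrix of 66890401 entries and 19987 barcodes, made by the authors with Cell Ranger 6.1.2 on mm10, per the submitters' processing notes. No source used here names the annotation. Each barcode ends in a number from 1 to 4, taken as its library, and 0 of 4 numbers match a sample title. Of the gene identifiers, 32158 (99.6%) were found in GENCODE M21.

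Kept were 16146 cells, which had 500 or more detected genes and no more than 20% of UMIs from mitochondrial genes. No doublet caller was used. Cells past several hormone thresholds and cells with at least 1% Ppy were set apart. Non-endocrine cells were named X-like where at least 3 markers of a type were detected, and a larger share of them than of any other type's. For each class in each library, summed UMIs were divided by the total without Ins1, Ins2, Iapp, Gcg, Sst, Ppy and Pyy. Log2 ratios used a pseudocount of 10 CPM, in classes of at least 30 cells, for genes that reached 10 UMIs in either class in each of the libraries. Ranges over libraries used the same pseudocount, for genes that reached 10 UMIs in at least 1 library of the class. A gene was counted when its ratio was at least 2-fold in the same direction in every library. Shares at equal depth are expected values after thinning to 5000 UMIs. The planned test of genotypes (edgeR) was not run, because no library is known to belong to any one sample. The ratio step was tested on simulated data. Python 3.11.15, numpy 2.4.6, scipy 1.17.1 and pandas 2.3.3 were used.

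The members, lists and thresholds were chosen with earlier results of these data known. Named beside the 7 members were up to 6 genes of the list of other antioxidant genes per comparison, those with the largest median ratio past 2-fold in every library that reached 50 UMIs in a class, and the genes closest in pattern, among genes that reach 100 CPM at a point. Values of some single marker genes are not reported here.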

Additional observations from a re-analysis of the deposited data

Results flagged for a closer look

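Cells past the Ppy threshold, which enter no comparison, held 784.5, 1121, 731 and 942 CPM of Prdx1 in libraries 1 to 4, from 24, 77, 37 and 59 cells. It is listed here because it lies in cells outside the comparisons and above the limit that a count of 0 allows. Library 1 held fewer than the 30 cells used as a minimum elsewhere. No group of 4 known replicates exists, so single libraries were not tested for standing apart.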

How the results depend on the processing

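Of 1260 values recomputed under the alternatives, 1111 stayed within a limit, 149 moved and 0 past 2-fold turned round. The limit was the spread over libraries for ratios, the 95% counting error for ranges and 1.5 times for counts. Of 490 median ratios of members, 22 crossed 0, of them 12 with hormone genes in the total. The log2 range of Gpx3 over libraries in Spp1-low beta cells, 3.18, was 3.33 with hormone genes in the total, 2.75 with cells past several thresholds counted in each class, 3.30 with CPM averaged over cells, 3.34 with a pseudocount of 1 CPM, 2.85 with doubled hormone thresholds, 3.07 with Spp1 under 0.2% against 1% or more, 3.49 without the 6% of cells with the most UMIs and 3.83 in beta cells under 0.1% of each other hormone, an alternative chosen after seeing the data. Leaving out a library gave 2.75 to 3.18. In Spp1-high beta cells the range, 4.04, was 3.50 with cells past several thresholds counted in each class, 4.54 with a pseudocount of 1 and 3.41 with doubled thresholds, and 3.02 to 4.04 when a library was left out, the lowest without library 2.

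Members lower in Spp1-low beta than in delta cells numbered 2 in place of 1 with hormone genes in the total and 1 to 2 when a library was left out, 2 without library 3, as Gpx3 then passed 2-fold. Members lower than in non-endocrine cells numbered 1 in place of 3 with CPM averaged over cells, when Gpx1 and Prdx1 no longer passed 2-fold. A pseudocount of 1 gave 1 member higher in Spp1-low beta than in alpha cells in place of 0, 2 in Spp1-high beta cells in place of 1, 3 with a range of 2-fold or more in Spp1-low beta cells in place of 1, and 1 in alpha cells in place of 0. Members with such a range in Spp1-high beta cells numbered 1 to 2 when a library was left out, 1 without library 3 or 4. In non-endocrine cells the count of 1 was 2 with 1000 genes and 10% mitochondrial UMIs, 0 with doubled thresholds, 0 without the 6% of cells with the most UMIs and 0 to 1 when a library was left out, 0 without library 1 or 4. The cause of these moves was not tested.

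Genes past 2-fold numbered 25 in place of 7 between the beta classes with a pseudocount of 1. With it they were 1144 in place of 524 for Spp1-low beta and 1114 in place of 524 for Spp1-high beta against alpha cells, 939 in place of 413 against delta cells and 3714 in place of 1838 against non-endocrine cells. With cells past several thresholds counted in each class they were 348 against alpha and 209 against delta cells. No paired analysis was possible because it is not known which sample any library came from, and the labels give no shared replicate numbers. Cat rests on few UMIs, and free RNA, doublets and the mixture of non-endocrine cells were not removed.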

Other observations

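Cells past the Ppy threshold held 892, 813, 886 and 699.5 CPM of Gpx3 and 199.7, 229, 227 and 259 CPM of Gpx1 in libraries 1 to 4. Cat was counted 0, 3, 1 and 2 times in them.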
